A study of Microcebus murinus with 18 samples.

Results

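The sodium pump moves sodium out of the cell and potassium into it at the cost of ATP. It pairs a catalytic subunit with a glycosylated beta subunit, which the enzyme needs to fold and to reach the plasma membrane. In brain the pump restores the ion gradients that neuronal firing runs down, and these gradients drive glutamate uptake and calcium extrusion. The genes examined were the beta subunits ATP1B1, ATP1B2 and ATP1B3, and the NKAIN genes NKAIN1, NKAIN2, NKAIN3 and NKAIN4, which encode small membrane proteins named for their interaction with the pump and known in mouse as mostly neuronal proteins that bind the beta 1 subunit.

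Members were taken by annotation: every probe set of the array assigned to 1 of the 7 gene symbols, giving 14 probe sets of 54613. The 7 genes had been chosen by function with the group differences in these same signals already known, while the rule itself uses no measured value. Their values are therefore a description of this family and lend no independent support to any pattern in it. In the temporal cortex of grey mouse lemurs (Microcebus murinus), the study asked which transcripts differ with age and with an Alzheimer-like pathology. There were 18 animals with 1 array each. The AD-like group held 2 females, old animals with β-amyloid plaques and cortical atrophy, the old group held 10 healthy animals, of which 3 were males, and the young adult group 6 animals, of which 2 were males. The mean age reported by the study was higher in the AD-like than in the old group. Age and pathology can therefore not be fully told apart between these groups. All animals were born and kept in one captive breeding colony and none is labelled with a treatment or a transgene. Animals are named below by sex and number within the group, so that old M2 is the second old male.

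RNA was hybridised to human HG-U133 Plus 2.0 arrays, on which each probe set is a group of short probes designed against a human transcript. A low signal on them can reflect little transcript or a poor match between the human probes and the lemur transcript, and these cannot be told apart, so each probe set is compared only with itself between animals. Signals had no unit and every array had been scaled to the same trimmed mean. The array medians lay between 30.7 and 54.4. In whole tissue, fewer cells of a type and less RNA per cell cannot be told apart.

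The arrays were split into 2 sets at a mean poly-A control signal of 100, a cut-off that comes from no label. Nothing in the labels says whether the sets were labelled or hybridised separately. On 4 arrays (AD-like F2, old M1, old M2 and young adult M2) the poly-A control transcripts, bacterial RNAs normally added to the sample before labelling, had a mean signal of 24.1 to 33.9. On the other 14 arrays (AD-like F1, 8 old and 5 young adult) their mean signal was 136.4 to 1384. Nearest the cut-off among these were young adult F4 (136.4) and young adult M1 (155.1). The 4 arrays are called arrays without poly-A control RNA below, which stands for a low signal of these transcripts. Among neuron markers 8 of 8 were among the probe sets kept for testing, and the summed signal of these 8 ranged from 24765 to 55023 in AD-like, from 35850 to 62776 in old and from 16731 to 62806 in young adult animals. For astrocytes 4 of 5, for oligodendrocytes 5 of 5 and for microglia 0 of 5 markers were kept. No marker of a cell type passed the adjusted test in any comparison of the 3 groups. At that level 0.00671% of all probe sets kept were called in AD-like against old animals. In old and in AD-like against young adult animals 0% were, so the lack of marker calls says little about the make-up of cells.

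Probe sets were ranked by the third-largest value each reached among the 18 arrays and the upper 27.3% were kept for testing, among them 6 of the 14 member probe sets. ATP1B1 had 2 such probe sets (201242_s_at and 201243_s_at), and ATP1B2 (204311_at), ATP1B3 (208836_at), NKAIN1 (219438_at) and NKAIN2 (242002_at) had 1 each. The limit set by this ranking was a third-largest value of 147.5. The nearest members on either side of that limit were ATP1B3 208836_at at 237.9 and, not kept, NKAIN2 1554601_at at 95.2. Neither NKAIN3 nor NKAIN4 had a probe set kept.

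**Figure D1:**
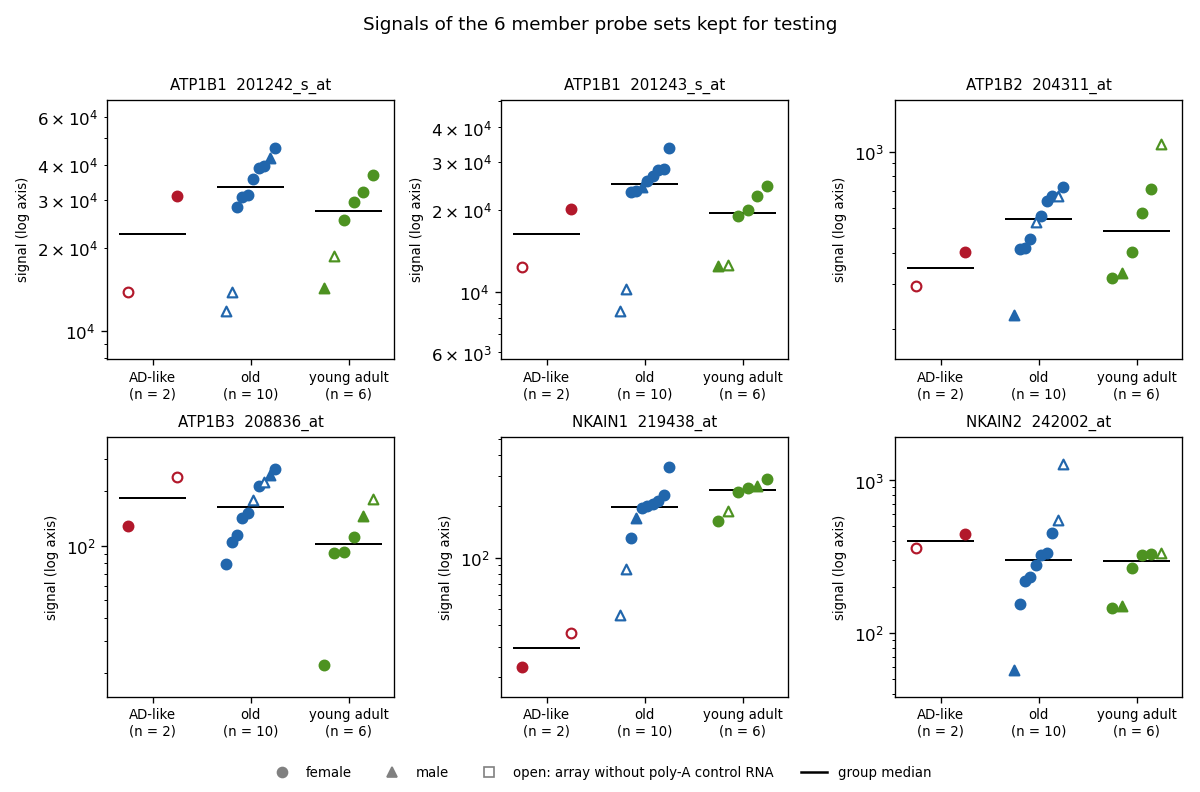
Signal of each of the 6 tested member probe sets (log axis) in each animal, with AD-like, old and young adult animals side by side and sorted by signal within a group, circles for females, triangles for males, open symbols where the array lacked the poly-A control RNA, and a line at the group median. In NKAIN1 both AD-like animals (22.8 and 36.0) sit under all other animals, and in ATP1B1 the open symbols lie at the low end of each group.

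NKAIN1 set the AD-like animals apart. Its signal was 22.8 in AD-like F1 and 36.0 in AD-like F2. In the old group it was 45.99 at the lowest (old M2), 198.3 at the median and 340.1 at the highest (old F2), and in the young adult group 163.0 at the lowest, 250.4 at the median and 289.2 at the highest. Both AD-like animals were therefore below every old and every young adult animal, and the groups did not overlap. The group means were 29.4 ± 9.28 in AD-like (SD, n = 2), 182.5 ± 82.0 in old (SD, n = 10) and 233.9 ± 48.3 in young adult animals (SD, n = 6).

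Non-overlap of this kind was also found elsewhere on the array: 1.62% of the probe sets tested had both AD-like animals below every old animal, 2.95% below every young adult and 0.637% below every other animal. In AD-like animals the NKAIN1 signal was also below the array's own median (44.3 on the array of AD-like F1 and 53.0 on that of AD-like F2). It exceeded the array median in 9 of 10 old and in 6 of 6 young adult animals, the exception being old M2 (array median 50.5). No detection call was used, so how far the AD-like signals stood above background is unknown.

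On the log2(signal + 16) scale, on which differences of dim probe sets are understated, NKAIN1 was lower by 2 units in AD-like than in old animals (log2 difference -2.0, SE 0.45, 95% confidence interval -2.95 to -1.06, limma p = 0.000238). This p ranked 13 among the probe sets tested and became 0.259 after Benjamini-Hochberg adjustment. Against young adult animals the difference was -2.45 (SE 0.48, 95% confidence interval -3.44 to -1.46, limma p = 4.47e-05, rank 3, adjusted p = 0.222). The AD-like differences are thus larger than the spread within the groups for this single probe set but do not pass the adjustment over all probe sets, and both share the same 2 AD-like animals. In the moderated F test over the 3 groups, NKAIN1 had p = 0.000184 and an adjusted p of 0.393 (limma). The ranking by third-largest value favours probe sets low in the AD-like group, since 2 animals alone cannot carry a probe set past it, and NKAIN1 passed through its old and young adult values. In the fit without the filter the differences were -2.0 (limma adjusted p = 0.282, rank 50) from old and -2.45 (limma adjusted p = 0.291, rank 9) from young adult animals.

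NKAIN1 was the only one of the 6 tested member probe sets at an unadjusted p under 0.05 in either AD-like comparison. In AD-like against old animals, 3.61% of all probe sets tested were lower and 1.26% higher at that level, and 0.00671% (1 probe set, not a member) passed the adjusted test. In AD-like against young adult animals, 3.18% were lower, 1.16% higher and 0% passed the adjusted test. Over the 3 groups 5.06% had an unadjusted p under 0.05 and 0% passed the adjusted F test, with NKAIN1 again the only member at the unadjusted level.

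The low NKAIN1 signals were compared with sex and with the array set, since both AD-like animals were females and the 2 lowest old signals, 45.99 in old M2 and 86.2 in old M1, came from males on arrays without poly-A control RNA. With group in the fit, male minus female was -0.70 (SE 0.27, limma adjusted p = 0.101). With the array set as a block as well, it was -0.35 (SE 0.34, limma adjusted p = 0.628). Arrays without minus arrays with the control RNA was -0.82 (SE 0.29, limma adjusted p = 0.0563). Among females alone, 22.8 and 36.0 in AD-like animals stood against 130.0 to 340.1 in 7 old and 163.0 to 289.2 in 4 young adult animals. In that fit the difference was -2.34 from old (SE 0.33, limma adjusted p = 0.0188) and -2.47 from young adult females (SE 0.36, limma adjusted p = 0.0242). AD-like F2 was the only female on an array without poly-A control RNA, so for this animal array set and group cannot be told apart among females. With sex as a covariate the adjusted p was 0.0460 against old and 0.0319 against young adult animals (limma). Neither of these fits took the array set into account.

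Within the 14 arrays with poly-A control RNA, where AD-like F1 was the single AD-like animal, the difference was -2.51 from old (limma adjusted p = 0.0393) and -2.72 from young adult animals (limma adjusted p = 0.0357). A lone animal has no spread of its own, and the fit lends it the pooled one. Within the 4 arrays without it, AD-like F2 differed by -0.61 from the 2 old males and by -1.97 from young adult M2. Only the 2 old males give a spread there, so these are values with no test. With the array set as a block the differences were -1.76 (adjusted p = 0.229) and -2.18 (adjusted p = 0.200) by limma. Leaving out old M2 gave -2.18 with an adjusted p of 0.0350 against old animals, so that 1 animal decided that call.

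**Figure D2:**
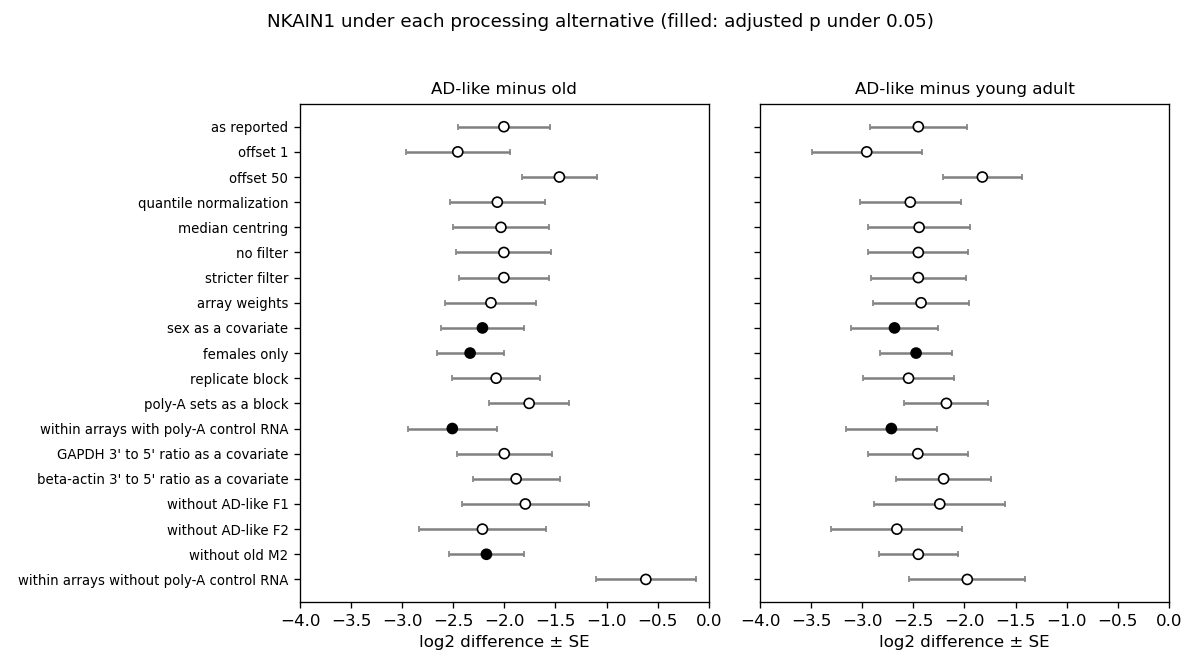
Log2 difference of NKAIN1 (points, with SE as bars) between AD-like and old animals on the left and between AD-like and young adult animals on the right, for the values as reported and under each alternative, with filled points where the limma adjusted p was under 0.05. The SE within the arrays without poly-A control RNA rests on the 2 old males. All points lie below 0, from -2.51 to -0.61 against old and from -2.96 to -1.82 against young adult animals.

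Between old and young adult animals NKAIN1 differed by -0.45 (SE 0.30, limma p = 0.154, adjusted p = 0.866), and 9 of 10 old animals were below the young adult median. In males the 3 old animals had 86.2, 45.99 and 169.8, and the 2 young adults 262.9 and 187.8. How many of all probe sets separated these few males was not counted. The log2 difference in males was -1.18 (SE 0.43, limma p = 0.0141, adjusted p = 0.559). In females it was -0.14 (SE 0.30, limma p = 0.649), with overlapping groups. The test of the difference between the sexes gave -1.04 (SE 0.53, limma p = 0.0634, adjusted p = 0.998), and 4.6% of all probe sets had an unadjusted p under 0.05 there. The 2 lowest of these old males were also the ones whose arrays lacked the poly-A control RNA. The part of this in the age difference of males was not tested.

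The summed signal of 8 neuron markers was 24765 and 55023 in AD-like animals, 35850 to 62776 in old and 16731 to 62806 in young adult animals. The lower AD-like sum was below those of all old animals and inside the young adult range, and its part in the NKAIN1 difference was not tested. The genes whose log2 values ran most closely with NKAIN1 over the 18 arrays were ASPHD1 (Spearman rho 0.83), CACNB3, a beta subunit of voltage-gated calcium channels (rho 0.80), and SLC35F6 (rho 0.79). These were taken as the highest of all probe sets with 1 symbol, so their size is a description. Within the 14 arrays with poly-A control RNA the same coefficients were 0.85, 0.74 and 0.74.

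NKAIN2, the other NKAIN gene with a tested probe set, was not low in the AD-like animals. Its signal was 447.5 in AD-like F1 and 360.4 in AD-like F2. In old animals it was 57.4 at the lowest (old M3), 302.5 at the median and 1284 at the highest (old M2), and in young adult animals 146.5 at the lowest, 295.2 at the median and 333.0 at the highest. Both AD-like animals were above all young adults, as in 2.65% of the probe sets tested, and inside the range of the old ones.

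None of the NKAIN2 differences passed a test. AD-like minus old was 0.42 (SE 0.64, limma p = 0.523), AD-like minus young adult 0.68 (SE 0.67, limma p = 0.325) and old minus young adult 0.26 (SE 0.43, limma p = 0.542). The 2 highest old signals, 1284 in old M2 and 555.0 in old M1, came from arrays without poly-A control RNA, where NKAIN2 was higher by 1.09 (SE 0.42, limma p = 0.0188, adjusted p = 0.0855). Without old M2 the old minus young adult difference was 0.04. The 95% confidence interval of AD-like minus old was wide, from -0.91 to 1.74.

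NKAIN1 and NKAIN2 ran in opposite directions across the 18 animals, with Pearson's r of -0.55 (permutation p = 0.0182) and Spearman's rho of -0.57 (permutation p = 0.0158). After adjustment over the 26 relations computed, these p became 0.237 and 0.137. Leaving out the 2 animals farthest from the median gave r of -0.64, and among the 14 arrays that carried the control RNA r was -0.33.

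ATP1B1, the beta 1 subunit and the most widely used partner of the catalytic subunit, had signals of 31018 in AD-like F1 and 13903 in AD-like F2 on 201242_s_at. In old animals the same probe set had 11813 at the lowest (old M1), 33291 at the median and 46076 at the highest (old F2), and in young adults 14315 at the lowest, 27296 at the median and 36840 at the highest. The 3 groups overlapped throughout. On 201243_s_at the signals were 20198 and 12348 in AD-like, 8482 to 33687 in old and 12422 to 24489 in young adult animals.

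The difference of AD-like from old animals was -0.50 on 201242_s_at (SE 0.48, limma p = 0.310) and -0.44 on 201243_s_at (SE 0.45, limma p = 0.334). The difference from young adult animals was -0.26 (SE 0.50) and -0.17 (SE 0.47), and that of old from young adult animals 0.24 (SE 0.32) and 0.27 (SE 0.30), each with a limma adjusted p above 0.05. After quantile normalization all of these were nearer 0, with AD-like minus old at -0.095 and -0.039, AD-like minus young adult at -0.091 and -0.020, and old minus young adult at 0.0039 and 0.020. The AD-like differences on 201242_s_at came from AD-like F2: without this animal they were 0.08 from old and 0.32 from young adults. Among females alone, where old animals had 28218 to 46076 on 201242_s_at, AD-like minus old was -0.76 on either probe set (limma p = 0.0322 and 0.0149, adjusted p = 0.377 and 0.326), and AD-like F2 was the only female on an array without poly-A control RNA.

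The low ATP1B1 signals were mostly those of 1 array set. On 201242_s_at the 4 arrays without poly-A control RNA had 18673 (young adult M2), 13903 (AD-like F2), 13833 (old M2) and 11813 (old M1), against 14315 to 46076 and a median of 31557 on the other 14. The overlap was due to young adult M1, at 14315 the lowest of the 14. With group in the fit, 201242_s_at was lower on the arrays without the control RNA by 1.15 log2 units (log2 difference -1.15, SE 0.25, limma adjusted p = 0.00689), and 201243_s_at by 1.11 (log2 difference -1.11, SE 0.22, limma adjusted p = 0.00512). At the same level 8.48% of all probe sets were lower there, 1265 in number, with both ATP1B1 probe sets among them. The brightest signal of any probe set was 12563 to 29184 on these 4 arrays. It was 23104.5 on the array of young adult M1 and 35778 to 70635 on the remaining ones. After quantile normalization, which gives every array the same distribution of signals and was applied here after the data had been seen, the differences between the array sets were -0.0095 (SE 0.19, limma adjusted p = 0.981) and -0.042 (SE 0.15, limma adjusted p = 0.884). ATP1B1 lay near the top of that distribution, so values near 0 were again partly fixed in advance.

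Sex and array set overlapped, since 3 of the 4 arrays without poly-A control RNA were of males and only 2 of the other 14 were. ATP1B1 was lower in males than in females, with group in the fit, by -0.89 on 201242_s_at (SE 0.27, limma adjusted p = 0.0419) and -0.95 on 201243_s_at (SE 0.23, limma adjusted p = 0.0195). In that test 7.3% of all probe sets were lower in males at an adjusted p under 0.05. With the array set as a block as well, an alternative chosen after the data had been seen, the differences were -0.34 (SE 0.30, limma adjusted p = 0.583) and -0.48 (SE 0.25, limma adjusted p = 0.351). With quantile normalization in place of the block, also chosen after the data had been seen, the sex differences had the opposite sign, 0.060 (SE 0.18, limma adjusted p = 0.879) and 0.012 (SE 0.15, limma adjusted p = 0.972). These values near 0 were likewise partly fixed in advance for a probe set this bright. Of the males on arrays with the control RNA, old M3 had 42577 and young adult M1 had 14315. The brightest signal of any probe set was 56180 on the array of old M3 and 23104.5 on that of young adult M1.

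**Figure D3:**
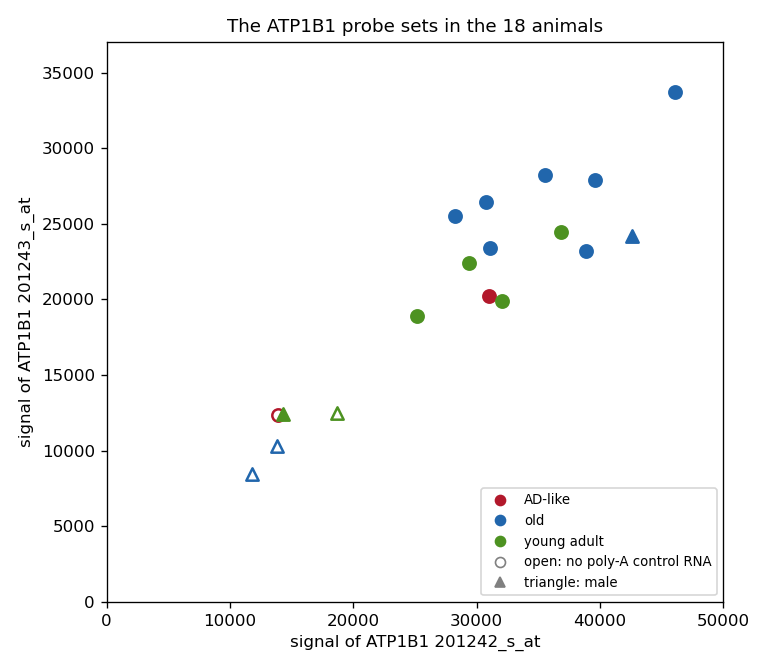
Signal of ATP1B1 201243_s_at against that of ATP1B1 201242_s_at in the 18 animals (linear axes), coloured by group, with triangles for males and open symbols for arrays without poly-A control RNA. The 4 open symbols and young adult M1 form the low end, at 18673 or less on 201242_s_at and 12500.5 or less on 201243_s_at.

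The signals of the ATP1B1 probe sets moved together across animals, with Pearson's r of 0.95 (permutation p = 1e-05, the smallest that the permutations can give) and Spearman's rho of 0.81 (permutation p = 7e-05), and adjusted p of 0.00026 and 0.00182 over the 26 relations. Leaving out the 2 farthest animals gave r of 0.92, and among the 14 arrays that carried the control RNA r was 0.87 and rho 0.60. This was the single relation of the 26 with an adjusted p under 0.05, and it was not computed on quantile-normalized values. ATP1B1 signals ran most closely with those of PRRC2A (rho 0.93), GIGYF1 (rho 0.92) and CABP1, a neuronal calcium-binding protein (rho 0.91), and within the 14 arrays at 0.93, 0.88 and 0.86.

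ATP1B2, the beta 2 subunit, known as an adhesion molecule on glia, had 403.2 in AD-like F1 and 294.6 in AD-like F2. In old animals its signal was 227.0 at the lowest (old M3), 543.1 at the median and 729.1 at the highest, and in young adults 316.1 at the lowest, 487.4 at the median and 1070 at the highest (young adult M2). Both AD-like animals were below the median of either group, and AD-like F2 was below all young adults. The difference was -0.53 from old animals (SE 0.43, 95% confidence interval -1.42 to 0.36, limma p = 0.225) and -0.56 from young adult animals (SE 0.45, limma p = 0.229).

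Between old and young adult animals ATP1B2 differed by -0.02 (SE 0.28, 95% confidence interval -0.62 to 0.57, limma p = 0.934), and the sign of this difference changed under many of the alternatives. The summed signal of the 4 tested astrocyte markers overlapped between the groups, at 6181 and 7284 in AD-like, 2766 to 25831 in old and 5174 to 15361 in young adult animals. The ratio of the 3' over the 5' probe sets of GAPDH is used as a measure of RNA integrity. Whether it serves so for lemur RNA on human probes was not tested. ATP1B2 was lower on arrays with a higher ratio, with r of -0.48 (permutation p = 0.0418) and rho of -0.59 (permutation p = 0.0106). The adjusted p over the 26 relations were 0.280 and 0.137, with r of -0.60 after leaving out the 2 farthest arrays and of -0.44 among the 14 arrays that carried the control RNA.

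ATP1B3, the beta 3 subunit, was the only member whose tested probe set had an unadjusted p under 0.05 between old and young adult animals. On 208836_at the old animals had 79.8 at the lowest, 164.2 at the median and 263.6 at the highest, against 22.1 at the lowest (young adult F2), 102.2 at the median and 181.6 at the highest in young adults. The ranges overlapped, with 9 of 10 old animals above the young adult median and 4 above all young adults. The log2 difference was 0.68 (SE 0.32, 95% confidence interval 0.02 to 1.35, limma p = 0.0453, adjusted p = 0.837).

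This share of members, 1 of 6, stands beside 3.49% of all probe sets higher and 2.43% lower at the same level, with 0% at an adjusted p under 0.05. Leaving out young adult F2, the only animal whose ATP1B3 signal was below its array median, gave 0.38 (limma p = 0.195). In AD-like animals 208836_at had 128.9 and 237.9, a difference of 0.11 from old (SE 0.48, limma p = 0.815) and of 0.80 from young adult animals (SE 0.51, limma p = 0.131). Among females alone the difference from young adults was 1.14 (SE 0.51, limma p = 0.0413, adjusted p = 0.591). With group in the fit, males exceeded females by 0.73 (SE 0.30, limma p = 0.0234, adjusted p = 0.111). With the array set as a block as well, chosen after the data had been seen, they did so by 0.62 (SE 0.39, limma p = 0.133, adjusted p = 0.448).

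**Figure D4:**
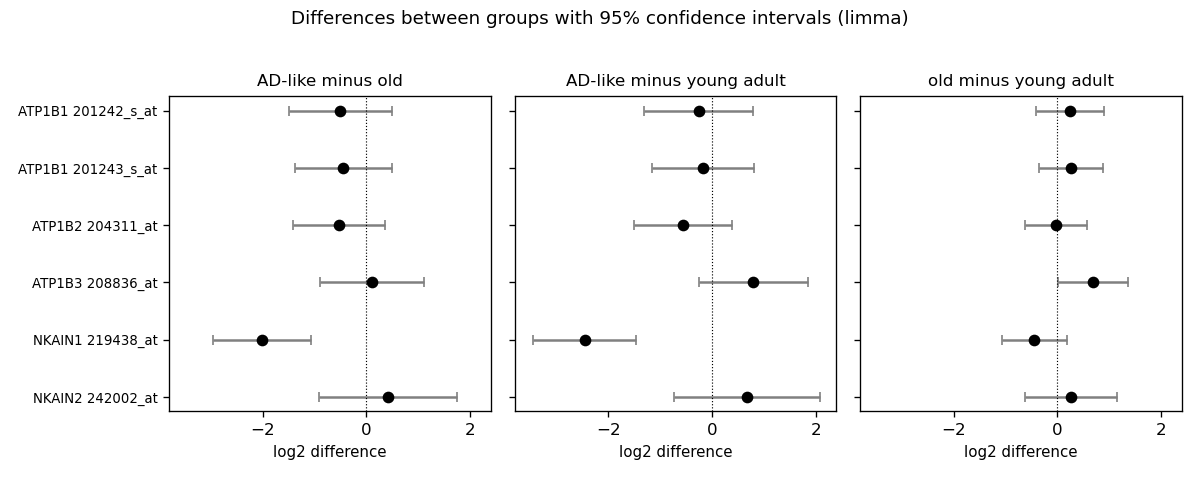
Log2 differences (points) with 95% confidence intervals (bars, limma) of the 6 tested member probe sets between AD-like and old, AD-like and young adult, and old and young adult animals. The intervals of NKAIN1 exclude 0 in both AD-like panels (-2.95 to -1.06 and -3.44 to -1.46), that of ATP1B3 just does in old minus young adult (0.02 to 1.35), and all others cross 0.

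Over the 6 tested member probe sets the median log2 difference was -0.47 for AD-like minus old (4 lower, 2 higher), -0.22 for AD-like minus young adult (4 lower, 2 higher) and 0.25 for old minus young adult (4 higher, 2 lower). Over all probe sets tested the medians were -0.02, 0.02 and 0.03. With so few members, 2 of them probe sets of ATP1B1, these figures describe the list and no more.

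The other 8 member probe sets were dim. The second NKAIN2 probe set, 1554601_at, had 71.4 and 91.1 in AD-like, 31.1 to 131.4 in old and 35.4 to 95.8 in young adult animals, and exceeded the array median on 16 of 18 arrays. NKAIN3, a further NKAIN family member (1553241_at), had 45.9 and 39.8 in AD-like, 12.1 to 105.4 in old and 7.61 to 66.5 in young adult animals, and exceeded the array median on 8 arrays. For both, the groups overlapped fully.

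Among the 4 NKAIN4 probe sets, 228017_s_at exceeded the array median on 11 arrays, 230771_at on 3, 228018_at on 2 and 230668_at on 0. On 228018_at the AD-like animals had 7.34 and 82.4, the old ones 3.63 to 15.8 and the young adults 4.58 to 54.7. All 10 old animals were below the young adult median of 28.1 there, and the old minus young adult difference in the fit without a filter was -0.67 (SE 0.32, limma p = 0.0502, adjusted p = 0.930). The same difference was 0.19 (SE 0.33) on 228017_s_at, 0.19 (SE 0.37) on 230771_at and -0.26 (SE 0.24) on 230668_at, where 8 of 10 old animals were below the young adult median. The pairwise correlations among the 4 lay between -0.31 and 0.23 (r), the highest being that of 228018_at with 230668_at, which was 0.62 within the 14 arrays with poly-A control RNA.

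ATP1B3 had 2 further probe sets, each above the array median on 3 arrays. On 226570_at the signals were 43.2 and 68.9 in AD-like, 6.80 to 72.3 in old and 6.96 to 99.0 in young adult animals, and on 229709_at 84.1 and 10.2 in AD-like, 3.47 to 45.2 in old and 8.34 to 42.8 in young adult animals. The old minus young adult difference was -0.10 (SE 0.33) and -0.30 (SE 0.32) on these in the fit without a filter, so neither ran in the direction of 208836_at. Their correlations with 208836_at were 0.10 and -0.17 (r).

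**Figure D5:**
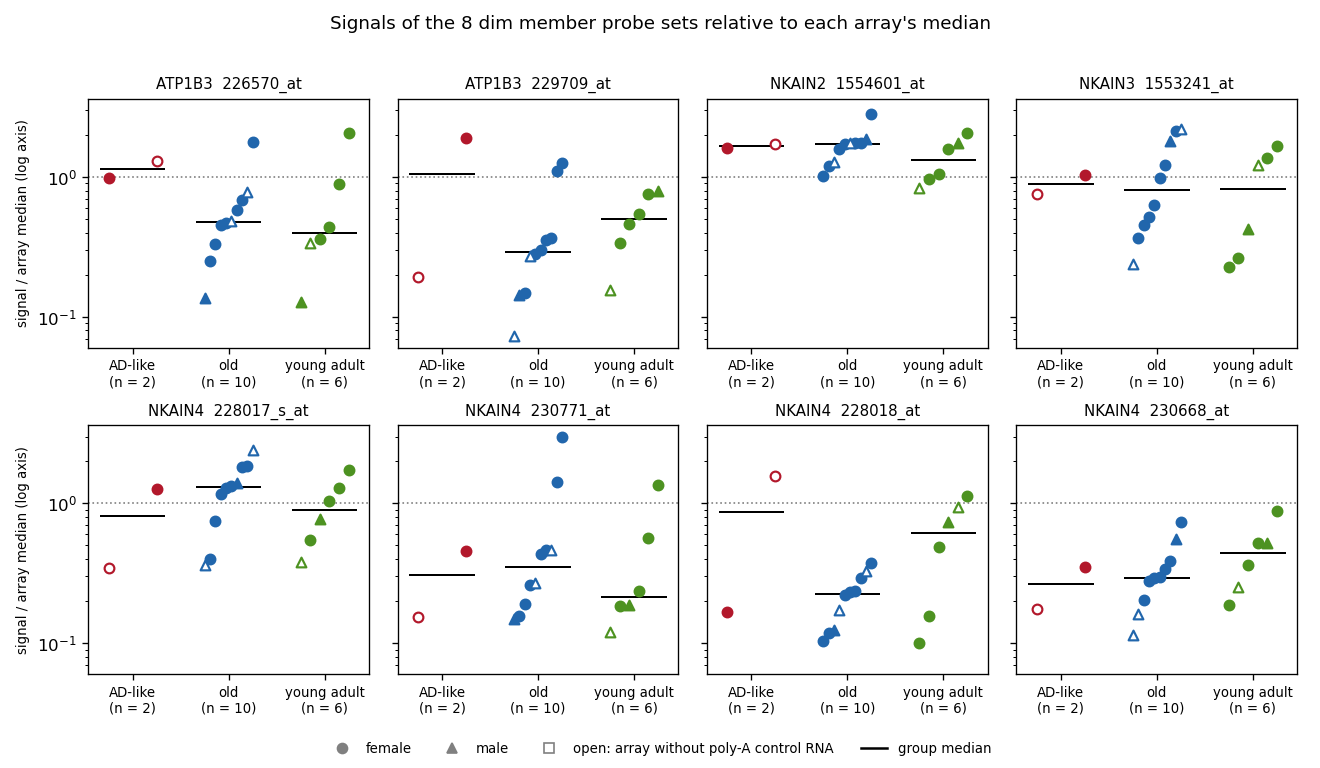
Signal of each of the 8 dim member probe sets divided by the median signal of its array (log axis, dotted line at a ratio of 1), with AD-like, old and young adult animals side by side and symbols for sex and array set as in the plot of tested probe sets. NKAIN2 1554601_at lies above the array median on 16 of 18 arrays, more than any other of the 8, and NKAIN4 230668_at lies below it on all.

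Genes that work with the pump were examined as 4 lists. Of the FXYD regulators and related ATPase genes, 11 had a probe set and 6 were tested, all of them FXYD genes. None passed the adjusted test or an unadjusted p under 0.05 in any of the 3 comparisons. The median log2 difference was -0.21 for AD-like minus old, -0.37 for AD-like minus young adult and -0.10 for old minus young adult. FXYD1, phospholemman, a regulator of the pump, had 422.1 and 537.8 in AD-like animals, against 201.1 to 1073 in old ones (log2 difference -0.67, SE 0.46, limma p = 0.164). FXYD7, a brain regulator of the pump, had 748.8 and 935.2 in AD-like and 759.7 to 1439 in old animals (log2 difference -0.34, SE 0.33, limma p = 0.320). FXYD5, dysadherin, had 42.8 to 197.6 in old and 84.8 to 249.5 in young adult animals (log2 difference -0.45, SE 0.30, limma p = 0.149).

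Among genes that use the sodium gradient or clear potassium, 12 of 14 were tested and none had an unadjusted p under 0.05. SLC8A2, a sodium-calcium exchanger, had 12.9 and 26.9 in AD-like animals, against 9.03 to 257.6 in old and 29.8 to 177.8 in young adult animals. Both AD-like values were inside the old range and below every young adult, as in 2.95% of the probe sets tested (AD-like minus young adult log2 difference -1.40, SE 0.73, limma p = 0.0690, adjusted p near 1). SLC6A11, a GABA transporter, had 31.5 and 168.9 in AD-like and 90.5 to 266.8 in young adult animals (log2 difference -0.85, SE 0.50, limma p = 0.107). KCNJ10, the inward rectifier of astrocytes, had 151.0 and 168.7 in AD-like and 20.4 to 166.4 in young adult animals (log2 difference 1.11, SE 0.68, limma p = 0.117).

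For voltage-gated sodium channels and their partners, 9 of 12 were tested and none had an unadjusted p under 0.05, the smallest being for SCN2B, an auxiliary subunit (219.2 and 234.8 in AD-like, against 18.7 to 337.8 in old animals, log2 difference 0.92, SE 0.59, limma p = 0.130). SCN1A differed by -0.24 between old and young adult animals (SE 0.28, limma p = 0.388), and FGF14 by -0.45 between AD-like and old animals (SE 0.47, limma p = 0.346). Of the calcium pumps 6 of 8 were tested. ATP2B3, a plasma membrane calcium pump, had 302.2 and 521.3 in AD-like and 86.5 to 404.0 in young adult animals, with overlap (log2 difference 1.11, SE 0.54, limma p = 0.0499, adjusted p near 1). ATP2B4 differed by 0.89 between AD-like and old animals (SE 0.63, limma p = 0.168) and ATP2C1 by -0.30 between old and young adult animals (SE 0.24, limma p = 0.226). Across the 4 lists no gene passed the adjusted test in any comparison, which 0.00671% of all probe sets tested did in AD-like minus old and 0% elsewhere. At an unadjusted p under 0.05, 3.49% were higher and 2.43% lower in old minus young adult. For AD-like minus old the shares were 1.26% and 3.61%, and for AD-like minus young adult 1.16% and 3.18%. At such shares, few or no calls in lists this short say little about the lists.

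The patterns of the remaining members had their own nearest genes over the 18 arrays. For ATP1B2 these were CFL1 (rho 0.84), PKNOX2 (rho 0.83) and CELF2 (rho 0.82), for ATP1B3 SLC5A7 (rho 0.83), MARCHF7 (rho 0.81) and TBC1D5 (rho 0.80), and for NKAIN2 PPM1A (rho 0.93), AUH (rho 0.91) and ANP32E (rho 0.91). No gene was named for more than 1 member.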

How the data were processed

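Temporal cortex of 18 grey mouse lemurs was measured on 1 human array each. The authors extracted total RNA from the right hemisphere, hybridised it and computed probe set signals with GCOS 1.2 and the MAS 5 algorithm, and the deposited values are linear signal intensities scaled by the authors so that the mean of each array, trimmed by 2% at each end, is 100 (checked). Of 54675 probe sets, 62 controls were left out. Gene symbols came from the platform annotation (41091 probe sets with 1 symbol, 1801 with several, 11721 with none). Probe sets were ranked by their third-largest value over the arrays and the upper 27.3% were tested. Values were transformed as log2(signal + 16) and fitted with limma 3.58.1 (R 4.3.3), group means over all 18 arrays, with moderated tests, two-sided, and Benjamini-Hochberg adjustment over all probe sets kept. Sex was tested with group as a covariate. Correlations used 1e+05 permutations. The number of arrays limits the precision. Arrays with a mean poly-A control signal under 100 formed the set without that control RNA.

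Every probe set with a single member symbol was described, each gene's leading one being that with the highest mean signal. From 4 lists of related genes, the 3 with the smallest F test p were named in the comparison with their smallest p. For each tested member the 3 most correlated genes were named. Members and lists were chosen with earlier results of these data known. Results that involve genes not annotated in the table used here were not analysed.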

Additional observations from a re-analysis of the deposited data

Results flagged for a closer look

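In 28 tests of single animals within the old and the young adult group, 6 signals lay far from the rest of their group. The measure was the gap to the nearest other animal as a share of the group's range. Gaps were taken on linear signals, not on the log2 scale, and all 6 were the highest signal of their group. Chance would mark about 1 group in 20 if signals within a group were normally distributed, which was not tested. On NKAIN2 242002_at, old M2 had 1284 and the next old animal 555.0 (gap 0.594 of the range). On NKAIN4 228017_s_at, old M2 had 120.6 and the next 70.1 (0.490). Old M2 was on an array without poly-A control RNA. On NKAIN4 230771_at, old F5 had 124.6 and the next 49.8 (0.62), and young adult F3 had 61.8 and the next 20.9 (0.736). On ATP1B3 226570_at, old F7 had 72.3 and the next 37.2 (0.536), and young adult F4 had 99.0 and the next 30.2 (0.747). Of these, NKAIN2 242002_at alone was bright enough to be tested.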

How the results depend on the processing

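The differences of the 6 tested member probe sets were recomputed under 14 other settings and with each of the 18 animals left out. Over these and the fit within the 4 arrays without poly-A control RNA, added after the data had been seen, 594 differences came out: 556 kept their direction and their side of the adjusted threshold, 31 changed sign and 7 passed the threshold anew, all of them NKAIN1. Against old animals NKAIN1 ranged from -2.51 to -1.46 under the planned settings, with adjusted p from 0.0188 to 0.590, and against young adults from -2.96 to -1.82, with adjusted p from 0.0242 to 0.720. The cause of each change below was not tested.

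Old minus young adult in ATP1B2, -0.02 as reported, became 0.013 with median centring, 0.17 in females only, 0.025 with the replicate block, 0.12 within the arrays with poly-A control RNA, 0.17 with the GAPDH and 0.030 with the beta-actin 3' to 5' ratio as a covariate, and ran from -0.16 to 0.18 with 1 animal left out. NKAIN2 became -0.017 within the arrays with the control RNA. Within the 4 arrays without it, ATP1B1 became -0.55 (201242_s_at) and -0.42 (201243_s_at), SCN1A 0.54 and ATP2C1 0.17.

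AD-like minus old in ATP1B3 became -0.071 with the array set as a block, -0.22 within the arrays with poly-A control RNA and -0.0016 with the beta-actin ratio, and ran from -0.29 to 0.52 with 1 animal left out. ATP1B1 ran from -1.08 to 0.080 on 201242_s_at with 1 animal left out. Within the 4 arrays without the control RNA, ATP1B1 became 0.12 (201242_s_at) and 0.40 (201243_s_at), NKAIN2 -1.19 and FXYD1 0.20. FGF14 ran from -1.0 to 0.092 with 1 animal left out.

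AD-like minus young adult in ATP1B1 201242_s_at became 0.13 with the array set as a block, 0.24 within the arrays with the control RNA and 0.12 with the beta-actin ratio, and ran from -0.84 to 0.32 with 1 animal left out. On 201243_s_at the same settings gave 0.20, 0.078 and 0.21, and the range was -0.53 to 0.18. SLC6A11 became 0.052 within the arrays with the control RNA and ran from -1.83 to 0.14 with 1 animal left out. Male minus female in NKAIN2, 0.18 with group alone in the fit, became -0.83 with the array set as a block. With quantile normalization, added after the data had been seen, male minus female became 0.060 (201242_s_at) and 0.012 (201243_s_at) in ATP1B1 and 0.20 in ATP1B2. For the bright ATP1B1, values near 0 were partly fixed in advance by this normalization. Under it the NKAIN1 difference of the arrays without poly-A control RNA from the others was -0.98 (limma adjusted p = 0.0274), against -0.82 (limma adjusted p = 0.0563) on the signals as deposited.

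Of the 6 member probe sets, 1 had an unadjusted p under 0.05 in each comparison. For old minus young adult this became 2 within the arrays with poly-A control RNA, 0 with either 3' to 5' ratio and with the methods' t-test on linear signals, and 0 to 1 with 1 animal left out. For AD-like minus old it became 2 with sex as a covariate, 3 in females only and 0 within the 4 arrays without the control RNA. For AD-like minus young adult it became 2 under each of the same settings. For the 3 groups it became 2 with quantile normalization and under these settings, and 1 to 2 with 1 animal left out. The counts within the 4 arrays rest on the spread between 2 old males, which the lone AD-like and young adult animals are assumed to share. Over all probe sets, the counts at an unadjusted p under 0.05 were 727 for AD-like minus old, 647 for AD-like minus young adult, 883 for old minus young adult and 755 for the 3 groups. Without the filter, with more probe sets tested, they were 3135, 2690, 2926 and 2969. With sex as a covariate they were 1635, 1222, 1127 and 1462, in females only 1788, 1241, 696 and 1286, and with the replicate block 1324, 1118, 1198 and 1314. The adjusted counts, 1, 0, 0 and 0, reached up to 19, 10, 0 and 5 over all alternatives.

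With the label's sex and number as a replicate block, NKAIN1 differed by -2.08 from old (limma adjusted p = 0.106) and by -2.55 from young adult animals (limma adjusted p = 0.0647), and no member call changed. Correlations of 10 same-numbered pairs ran from -0.27 to 0.47, with 7 over 0.1 and 3 not, and the block's consensus correlation was 0.21, so the numbers were not taken to pair the animals. The AD-like group of 2 animals and the dimness of 8 of the 14 member probe sets set the limit of what could be compared.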
